A study of Mus musculus with 18 samples.

Results

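Vwf encodes von Willebrand factor, the large adhesive protein that endothelial cells store and release to catch platelets, and it is among the most widely used markers of the vessel wall. The 7 genes described here are Vwf and 6 further endothelial markers, Pecam1, Cdh5, Kdr, Tek, Cldn5 and Egfl7. They were taken by symbol, as 7 of the 23359 gene symbols in a table of normalized expression values. Vwf was chosen because its value was slightly higher in sorted reporter-positive olfactory neurons, and the others were chosen to see whether they show the same pattern. For Vwf the contrast between sorted groups is therefore a description with no test.

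The study sorted mouse cells of the main olfactory epithelium (MOE), the nasal sheet that holds the olfactory sensory neurons (OSNs), and measured their RNA by Smart-seq2. In Taar5-ires-Cre;lox-L10-GFP mice at postnatal day 11 to 14, Cre made from the transcript of the receptor gene Taar5 switches on L10-GFP, and 7 libraries of GFP-positive cells (Taar5+) and 9 of GFP-negative cells (control) were made. In Taar6-ires-Cre;lox-ZsGreen mice at postnatal day 16 to 17, there were 1 library of ZsGreen-positive cells (Taar6+) and 1 of ZsGreen-negative cells. Strain and age are uncertain, since the labels give C57BL/6 and the ages above, whereas the reporting summary of the paper names a mixed background and older mice for both lines. Controls carry the same alleles as the reporter-positive cells of their line, so both groups differ by the reporter and not by genotype. The labels do not tie libraries to animals, so p-values measure the spread between these libraries, which may be technical. Cre here marks cells that have transcribed a Taar locus at any time, and the sort used the reporter alone, with no marker of vessel cells named in the sources used here.

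Values are TPM, a length-corrected share of each library scaled to a fixed sum, and the depth behind them is unknown. A value of 0 in such a table can be a failed estimate, so a gene is said to be listed at 0. Both groups held abundant neuronal RNA. Omp, the olfactory marker protein of mature OSNs, ranged from 8597 to 18195 TPM in Taar5+ libraries and from 3908 to 20070 TPM in controls. The paper estimates that most, but not all, reporter-negative cells are OSNs that express odorant receptors. Omp alone does not show that both sorts were equally pure. A pair of libraries stood apart from their groups. Control replicate 2 listed only 5939 gene rows above 0, whereas its fellow controls had at least 11352. Taar5+ replicate 5 had the lowest summed Taar level of its group (1517 TPM, against 4542 to 7804 TPM) and the highest summed odorant receptor level (5525 TPM, against 225 to 1999 TPM). Several results that rest on these libraries are given with and without them, and the others with all libraries only.

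As background, endothelial cells line every vessel, and the markers named here stand for different parts of that lining. Cdh5 (VE-cadherin) and Pecam1 (CD31) hold neighbouring endothelial cells together at their junctions, and Cldn5 (claudin-5) seals the tight junctions between them. Kdr (VEGF receptor 2) and Tek (Tie2, the angiopoietin receptor) are receptor tyrosine kinases that carry the growth and resting signals of vessels, and Egfl7 is a protein that endothelial cells secrete. Vwf is packed with P-selectin and other cargo into storage granules called Weibel-Palade bodies, and megakaryocytes and platelets make and carry it too.

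The 7 genes lie on 7 chromosomes of the mm10 (GRCm38) assembly. Vwf spans chr6:125546774-125686679 on the plus strand, with a longest transcript of 8834 bases in 52 exons. Pecam1 lies at chr11:106654217-106750628 (minus strand), Cdh5 at chr8:104101625-104144511 (plus), Kdr at chr5:75932827-75978458 (minus) and Tek at chr4:94739289-94874976 (plus). Cldn5 lies at chr16:18776847-18778262 (plus) and has a single exon of 1416 bases, and Egfl7 lies at chr2:26580014-26593120 (plus). Of the 50-base stretches in their annotated transcripts, 0.947% in Vwf, 1.54% in Pecam1 and 5.33% in Egfl7 also occur in transcripts of other genes, Agpat2 and Mir126a among them for Egfl7. None did in Cdh5, Kdr, Tek or Cldn5.

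The genome sequence just before the transcription start was held for 4 of the 7 genes, Cldn5, Egfl7, Kdr and Tek, in the RefSeq annotation of GRCm38.p6. Transcription factors of the ETS family are known to drive many endothelial genes and bind a core of GGAA. The 250 bases before the start of both receptors and of Cldn5 are shown 5′ to 3′ on the strand of the gene, because by mean these are the lowest and the highest control levels among the 4 genes, with GGAA or its reverse complement TTCC in capitals.
Kdr (chr5:75978456-75978705, minus strand): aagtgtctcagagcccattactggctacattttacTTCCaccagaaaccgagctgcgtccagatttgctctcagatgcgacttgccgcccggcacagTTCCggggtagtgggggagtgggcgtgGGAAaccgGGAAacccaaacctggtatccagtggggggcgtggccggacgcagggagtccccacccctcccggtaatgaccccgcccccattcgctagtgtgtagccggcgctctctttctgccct
Tek (chr4:94739039-94739288, plus strand): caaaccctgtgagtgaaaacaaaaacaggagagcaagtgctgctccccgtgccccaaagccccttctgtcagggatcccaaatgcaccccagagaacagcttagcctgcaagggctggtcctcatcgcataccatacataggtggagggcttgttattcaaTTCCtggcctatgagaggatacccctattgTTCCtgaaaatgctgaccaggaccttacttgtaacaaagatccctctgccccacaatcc
Cldn5 (chr16:18776597-18776846, plus strand): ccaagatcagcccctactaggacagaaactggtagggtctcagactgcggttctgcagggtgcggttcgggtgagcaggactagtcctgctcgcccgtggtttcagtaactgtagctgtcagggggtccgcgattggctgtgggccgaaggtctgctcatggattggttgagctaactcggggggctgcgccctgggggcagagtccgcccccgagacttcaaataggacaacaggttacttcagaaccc

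Counting both strands, the window of Kdr holds 4 copies of GGAA, that of Tek 2 and that of Cldn5 0. The 3 annotated starts of Egfl7 have 5, 3 and 1. The motif is common, since 93.4% of 32851 promoter windows of the same length hold at least 1, with a median of 3. These matches describe the letters in these windows and are no evidence of binding.

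Vwf was at a low level in every Taar5+ library and at or near 0 in every control of the line. In Taar5+ cells it ranged from 1.12 TPM in replicate 5 to 5.78 TPM in replicate 6, the median being 3.22 TPM and the mean 3.37 ± 1.66 TPM (SD, n = 7). Among controls the median was 0.0987 TPM and the highest value 0.828 TPM (n = 9), and 3 of them listed it at 0. The groups did not overlap, and the lowest Taar5+ library lay 0.289 TPM above the highest control. On the scale of log2(TPM + 1) the difference between group means was 1.75, which is the value Vwf was picked for. Without control replicate 2 and Taar5+ replicate 5 the Taar5+ libraries began at 1.94 TPM and the controls still ended at 0.828 TPM.

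The order was the opposite in the Taar6 line. The Taar6+ library held 2.26 TPM of Vwf and its control 3.04 TPM, a log2 difference of -0.31 with no replicate and no test. The Taar6-line control thus lay above every control of the Taar5 line, and among the values of Taar5+ cells. Line, reporter and age cannot be told apart between these libraries.

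**Figure D1:**
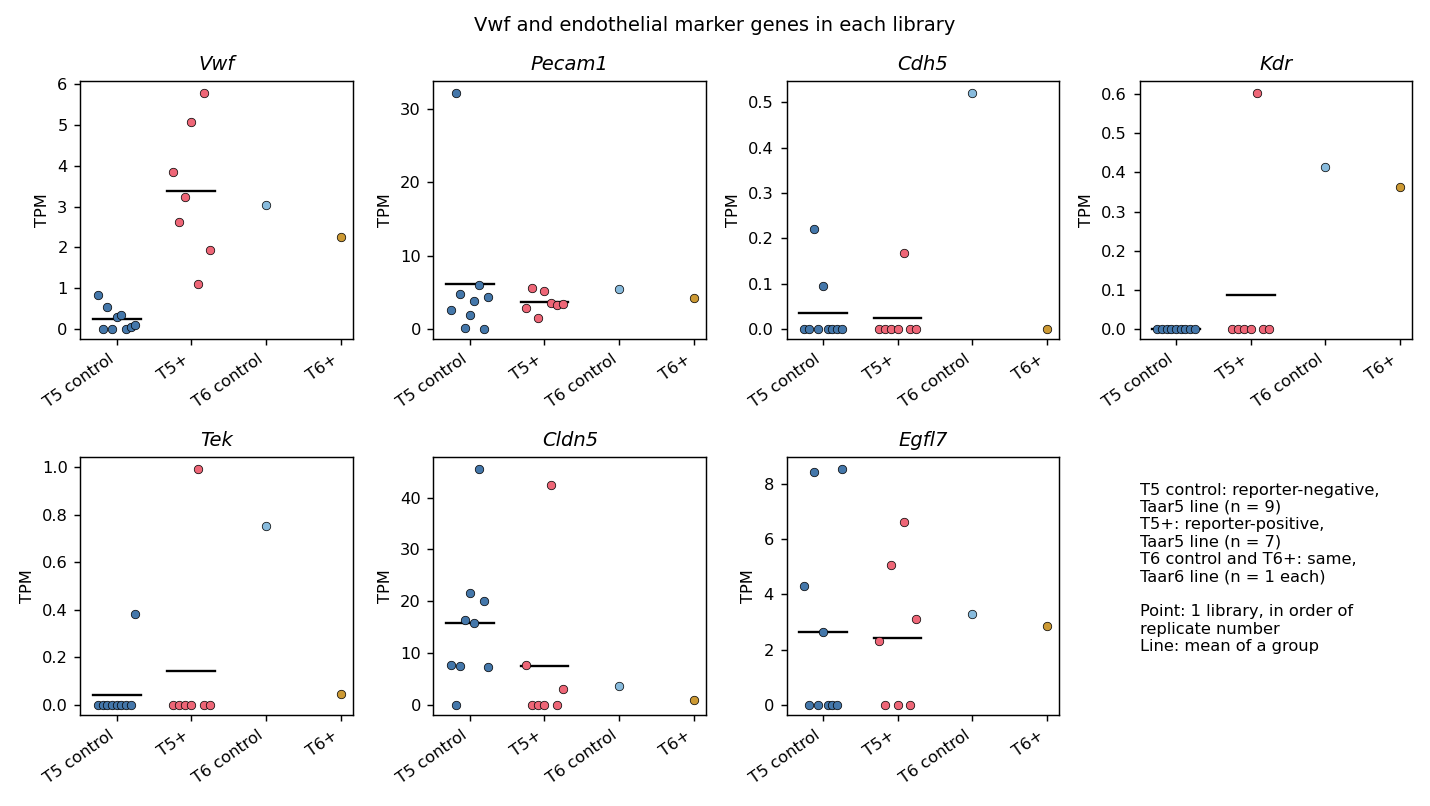
Level of each of the 7 genes in every library, in TPM on a linear axis that differs by panel. Each point is 1 library, set out in order of replicate number within its group, and horizontal lines mark group means. The Taar5+ points of Vwf (1.12 to 5.78 TPM) sit above all controls of their line, whereas the groups overlap in the other 6 panels or share values of 0.

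The junction gene Pecam1 was the only other member detected in most libraries of both groups, and its levels overlapped throughout. In Taar5+ cells Pecam1 ranged from 1.58 to 5.56 TPM around a median of 3.41 TPM (mean 3.67 ± 1.37 TPM, SD, n = 7). In controls it ranged from 0 TPM in replicate 8 to 32.1 TPM in replicate 2, around a median of 3.85 TPM (n = 9). Without control replicate 2 the controls ended at 5.97 TPM, so the Taar5+ range lay inside theirs. The difference in log2(TPM + 1) was 0.08 (SE 0.61, 95% confidence interval -1.19 to 1.35, adjusted p = 0.992 in limma). The single libraries of the Taar6 line had 4.22 TPM (Taar6+) and 5.45 TPM (control) of Pecam1.

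Cdh5, which defines the endothelial junction, was listed at 0 in 13 of the 16 Taar5-line libraries. The values above 0 were 0.167 TPM in Taar5+ replicate 5, 0.220 TPM in control replicate 3 and 0.0945 TPM in control replicate 5. Its highest level of all was 0.521 TPM in the Taar6-line control, and it was listed at 0 in Taar6+ cells. Cdh5 reached 1 TPM in 0 of the 16 libraries and did not enter the test across genes.

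The receptors Kdr and Tek were equally sparse. Kdr was listed at 0 in all 9 controls and in 6 of the Taar5+ libraries, with 0.603 TPM in Taar5+ replicate 5. Tek was above 0 in Taar5+ replicate 5 (0.995 TPM) and in control replicate 9 (0.383 TPM). The Taar6 line listed Kdr at 0.364 TPM (Taar6+) and 0.413 TPM (control), and Tek at 0.0476 and 0.753 TPM. Neither receptor reached 1 TPM in any Taar5-line library, and both stayed outside the test across genes.

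For Cdh5, Kdr and Tek the difference in mean log2(TPM + 1) was -0.01, 0.10 and 0.09, and exact two-sided permutation tests over 11440 assignments of the libraries gave p = 0.85, 0.4375 and 0.7375 (n = 7 and 9). With so many values at 0, none of these tests could have given a p under 0.05, and that of Kdr none under 0.4375. Their outcome therefore says nothing on whether the groups differ. Outside replicate 5, all 6 Taar5+ libraries had Cdh5, Kdr and Tek at 0 together while Vwf was 1.94 to 5.78 TPM. Vwf was not alone in this. In the same 6 libraries Pecam1 was 1.58 to 5.56 TPM and Plvap, a further endothelial gene described below, 6.07 to 13.7 TPM. Cldn5 and Egfl7 were listed at 0 in some of them. Control replicate 7 also had Cdh5, Kdr and Tek at 0, with 45.6 TPM of Cldn5. The library with the largest sum of Cdh5, Kdr and Tek (1.77 TPM, Taar5+ replicate 5) had the least Vwf of its group. It also had the lowest summed Taar level of its group and the most gene rows above 0 of any library (17808). The part of these traits was not tested. The Taar6-line control had the next largest sum (1.69 TPM) and held 3.04 TPM of Vwf, more than any Taar5-line control.

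**Figure D2:**
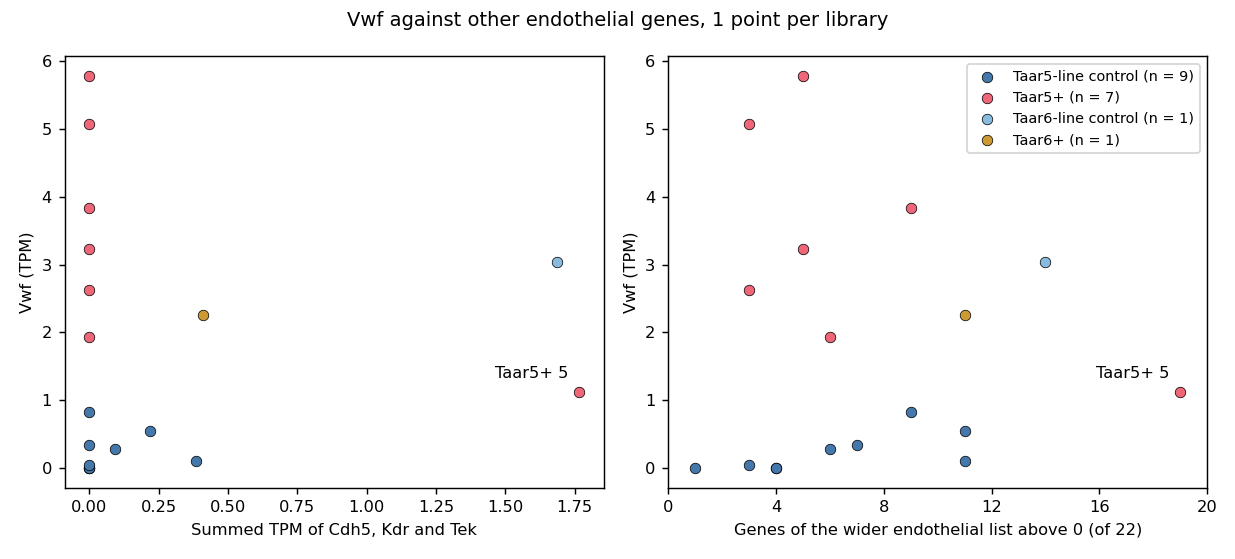
Vwf in TPM (vertical axes) against the summed TPM of Cdh5, Kdr and Tek (left) and against the number of 22 further endothelial genes above 0 (right), with 1 point per library coloured by group. Of the Taar5+ points, 6 lie at a sum of 0 with Vwf from 1.94 to 5.78 TPM, and Taar5+ replicate 5 lies far right in both panels with 1.12 TPM of Vwf. The Taar6-line control also lies to the right, at a sum of 1.69 TPM and 14 genes, with 3.04 TPM of Vwf.

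Cldn5 had the highest values of the 7 genes in controls and lay in the other direction from Vwf. It was above 0 in 8 of 9 controls, from 7.26 TPM upward to 45.6 TPM in replicate 7, and was listed at 0 in control replicate 2. The control median was 15.7 TPM. In Taar5+ cells Cldn5 was listed at 0 in 4 of 7 libraries, and the others held 3.06, 7.69 and, in replicate 5, 42.4 TPM. Most Taar5+ libraries were therefore low and most controls high, but replicate 5 and control replicate 2 each fell among the other group.

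The difference in log2(TPM + 1) for Cldn5 was -2.03 (SE 0.87, 95% confidence interval -3.85 to -0.21, unadjusted p = 0.0304, adjusted p = 0.592 in limma), which did not pass the threshold. An exact two-sided permutation test of the same difference gave p = 0.05 (n = 7 and 9), on the border of the threshold before any adjustment. Without control replicate 2 and Taar5+ replicate 5 together, the difference was -3.13 with an adjusted p = 0.00708 in limma. That setting called 337 of the 11915 genes tested, and its median difference over all genes was -0.22. No other setting tried called a member besides Vwf. The 6 remaining Taar5+ libraries then ended at 7.69 TPM and the 8 controls began at 7.26 TPM. For Cldn5 the Taar6+ library had 0.868 TPM and its control 3.70 TPM, a log2 difference of -1.33 with no test.

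Egfl7 was present in some libraries of each group. It was above 0 in 4 of 7 Taar5+ libraries, from 2.30 to 6.64 TPM, and in 4 of 9 controls, from 2.63 to 8.56 TPM. The difference in log2(TPM + 1) was 0.13 (SE 0.67, 95% confidence interval -1.26 to 1.53, adjusted p = 0.989 in limma), and its sign changed when single libraries were left out. Egfl7 was close to equal in the pair from the Taar6 line, at 2.84 TPM (Taar6+) and 3.30 TPM (control). Its values may hold reads from genes that share sequence with it, and how such reads were assigned is not given in the sources used here.

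Of the 6 members other than Vwf, 3 entered the test across genes (Pecam1, Cldn5 and Egfl7), and 0 had an adjusted p under 0.05 in limma, while 1, Cldn5, had an unadjusted p under 0.05. Over all 12502 genes tested, 21 were called (0.168%), 18 as higher (0.144%) and 3 as lower (0.024%) in Taar5+ cells, and 881 had an unadjusted p under 0.05 (7.05%). The groups overlapped for all 3, against 18 genes without overlap in either direction (0.144%), of which 5 were lower (0.04%). The median difference was 0.08 over these 3 members and 0.02 over all genes tested. Vwf itself reached 1 TPM in the 7 Taar5+ libraries and in 0 controls, so it passed the filter only through the group in which it is high. In bulk samples such as these, fewer cells of a type and less RNA per cell cannot be told apart.

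Medians are set side by side here because TPM are corrected for length, although this alone does not make levels of different transcripts strictly comparable. In Taar5+ cells the medians ran from Pecam1 (3.41 TPM) and Vwf (3.22 TPM) to Egfl7 (2.30 TPM), with Cldn5, Cdh5, Kdr and Tek at 0. The ranges of Pecam1, Vwf and Egfl7 in this group overlap, so their order is within the spread. In controls the medians ran from Cldn5 (15.7 TPM) and Pecam1 (3.85 TPM) to Vwf (0.0987 TPM), with Egfl7, Cdh5, Kdr and Tek at 0. Vwf thus stood beside Pecam1 in Taar5+ cells and far below it in controls.

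The further 22 endothelial genes were sparse as well. Of these, 2 entered the test, Plvap and Nos3, and 0 were called. Between 3 and 9 of the 22 were above 0 in the Taar5+ libraries other than replicate 5, which had 19, and between 1 and 11 in controls. Their summed level was 11.0 to 22.5 TPM in those 6 Taar5+ libraries, 44.6 TPM in replicate 5 and 0.544 to 24.96 TPM in controls. The transcription factors Erg and Sox7 were listed at 0 in all 16 libraries. Flt1, Tie1, Emcn and Robo4, which belong to the same receptor families or mark the same cells, were above 0 in at most 2 of the 16. Taar5+ replicate 5 also had the most gene rows above 0 of any library (17808), and the part of library complexity in these counts was not tested.

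**Figure D3:**
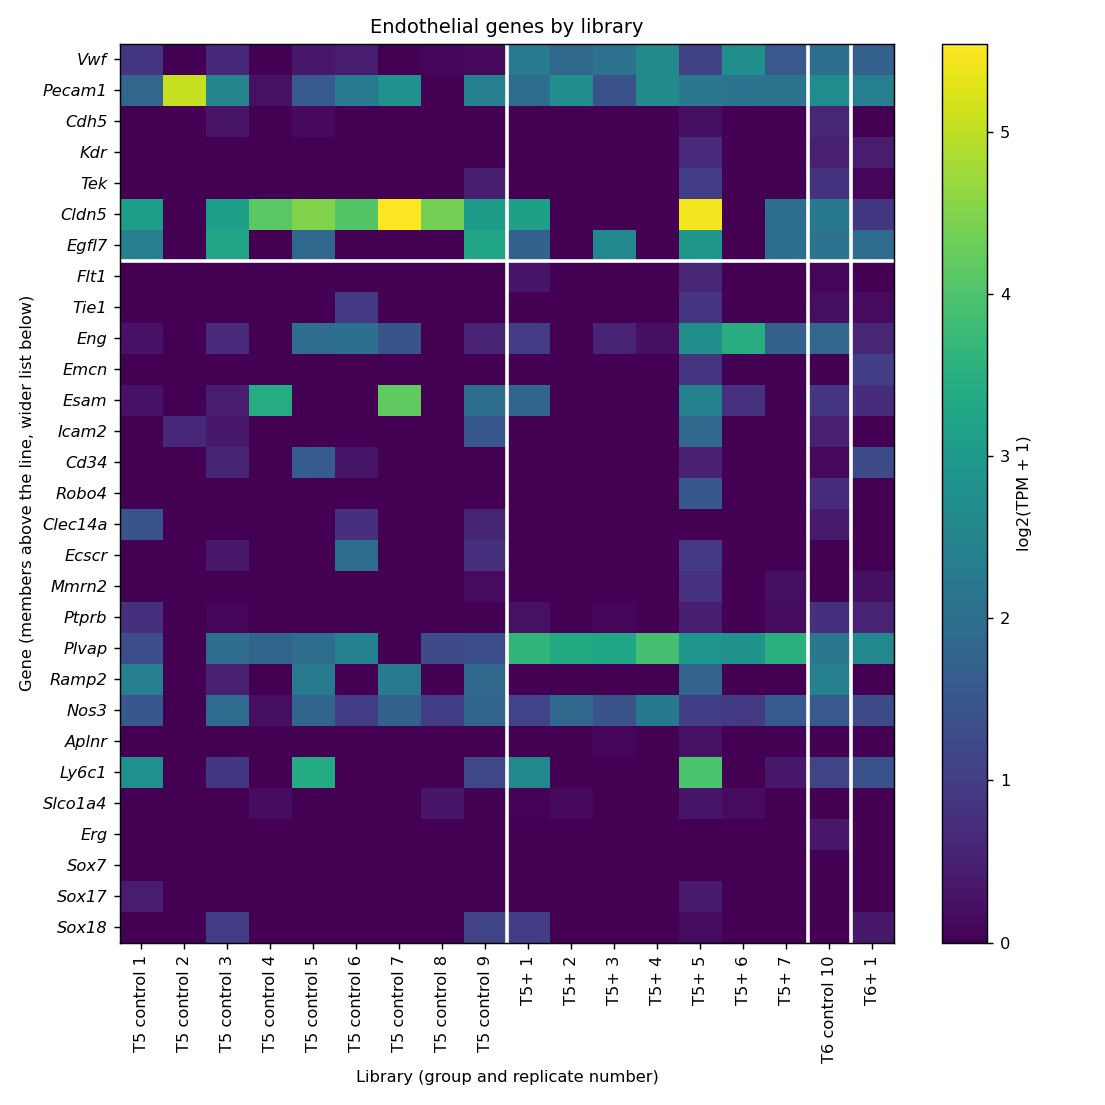
Level of the 7 genes (above the white line) and of 22 further endothelial genes (below it) in all 18 libraries, coloured by log2(TPM + 1), with vertical white lines between groups. Vwf and Plvap are brighter across Taar5+ columns than across Taar5-line control columns, while most other rows are dark except in Taar5+ replicate 5.

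Plvap, the protein of the diaphragms that span endothelial fenestrae and caveolae, was the only one of these 22 genes whose groups did not overlap. Its Taar5+ libraries ran from 6.07 to 13.7 TPM (mean 9.47 ± 2.70 TPM, SD, n = 7) while its controls ended at 4.42 TPM, around a median of 1.53 TPM. Of all genes tested, 13 were higher without overlap (0.104%). The log2 difference was 1.996 (SE 0.46, 95% confidence interval 1.04 to 2.95, unadjusted p = 0.000335, adjusted p = 0.105 in limma), which did not pass the threshold. Over the 25 alternatives tried its adjusted p in limma ran from 0.029 to 0.379. It was under the threshold in 4, among them the fit without control replicate 2 (0.0459), which called 148 of 12460 genes. Plvap was 5.01 TPM in the Taar6+ library, between the groups of the Taar5 line, and 3.68 TPM in the Taar6-line control, among the controls. Nos3, the endothelial nitric oxide synthase, had a difference of 0.24 (SE 0.39, adjusted p = 0.970 in limma). Esam and Ly6c1, the next by mean level, had medians of 0 in Taar5+ cells and reached 17.2 and 14.7 TPM in single libraries.

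The partners of Vwf in storage and clotting were not called. Of 10 genes, 4 entered the test, 1 with a higher and 3 with a lower mean in Taar5+ cells, and 0 were called. F8, the clotting factor VIII that travels bound to Vwf in plasma, ranged between 2.81 and 6.30 TPM in Taar5+ libraries and between 5.62 and 12.2 TPM in controls, a log2 difference of -0.87 (SE 0.39, unadjusted p = 0.0379, adjusted p = 0.641 in limma). F8 lay the other way round in the Taar6 line, at 16.9 TPM (Taar6+) and 8.60 TPM (control). Cd63, a membrane protein of Weibel-Palade bodies and lysosomes, differed by -1.38 (SE 0.82, adjusted p = 0.868 in limma), and its highest value, 300 TPM, was in control replicate 2. Plat, the tissue plasminogen activator, differed by -0.98 (SE 1.05, adjusted p = 0.955 in limma). Selp, the P-selectin stored beside Vwf, was listed at 0 in every Taar5+ library and in 14 of the 16 in all.

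Platelets and megakaryocytes carry Vwf as well, so 8 of their genes were examined. None of the 8 entered the test. Pf4 (platelet factor 4), the highest of them, was above 0 in 1 Taar5+ library, replicate 5 (4.22 TPM), and reached 27.9 TPM in controls. Ppbp was listed at 0 in all 16 libraries. Itga2b, the platelet integrin subunit, reached 19.7 TPM in Taar5+ cells against 4.46 TPM in controls, and was listed at 0 in libraries of both groups. Gp5 reached 7.45 TPM in Taar5+ cells and 13.7 TPM in controls. Their summed level was 0.314 to 19.7 TPM in Taar5+ cells without replicate 5, 16.3 TPM in replicate 5, and close to 0 up to 29.2 TPM in controls.

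Ligands of the VEGF and angiopoietin families, not all of which bind Kdr or Tek, and further receptors and co-receptors of these families were described in the same way. Of the 8 listed ligands of VEGF and angiopoietin type, 2 entered the test and 0 were called. Pgf, a ligand of the VEGF family, differed by 0.41 (SE 0.83, adjusted p = 0.976 in limma), and Vegfb by 0.77 (SE 0.79, adjusted p = 0.955 in limma). Angpt1, the activating ligand of Tek, did not enter the test and reached 1.72 TPM in Taar5+ cells and 4.41 TPM in controls. The neuropilins Nrp1 and Nrp2, which neurons also use for axon guidance, were far above Kdr. Nrp1 had a median of 43.9 TPM in Taar5+ cells and 38.9 TPM in controls (difference 0.62, SE 0.67, adjusted p = 0.955 in limma). Nrp2 had medians of 14.6 and 43.5 TPM (difference -1.41, SE 0.67, unadjusted p = 0.048, adjusted p = 0.701 in limma). Flt4 did not reach 1 TPM in any of the 16 libraries.

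**Figure D4:**
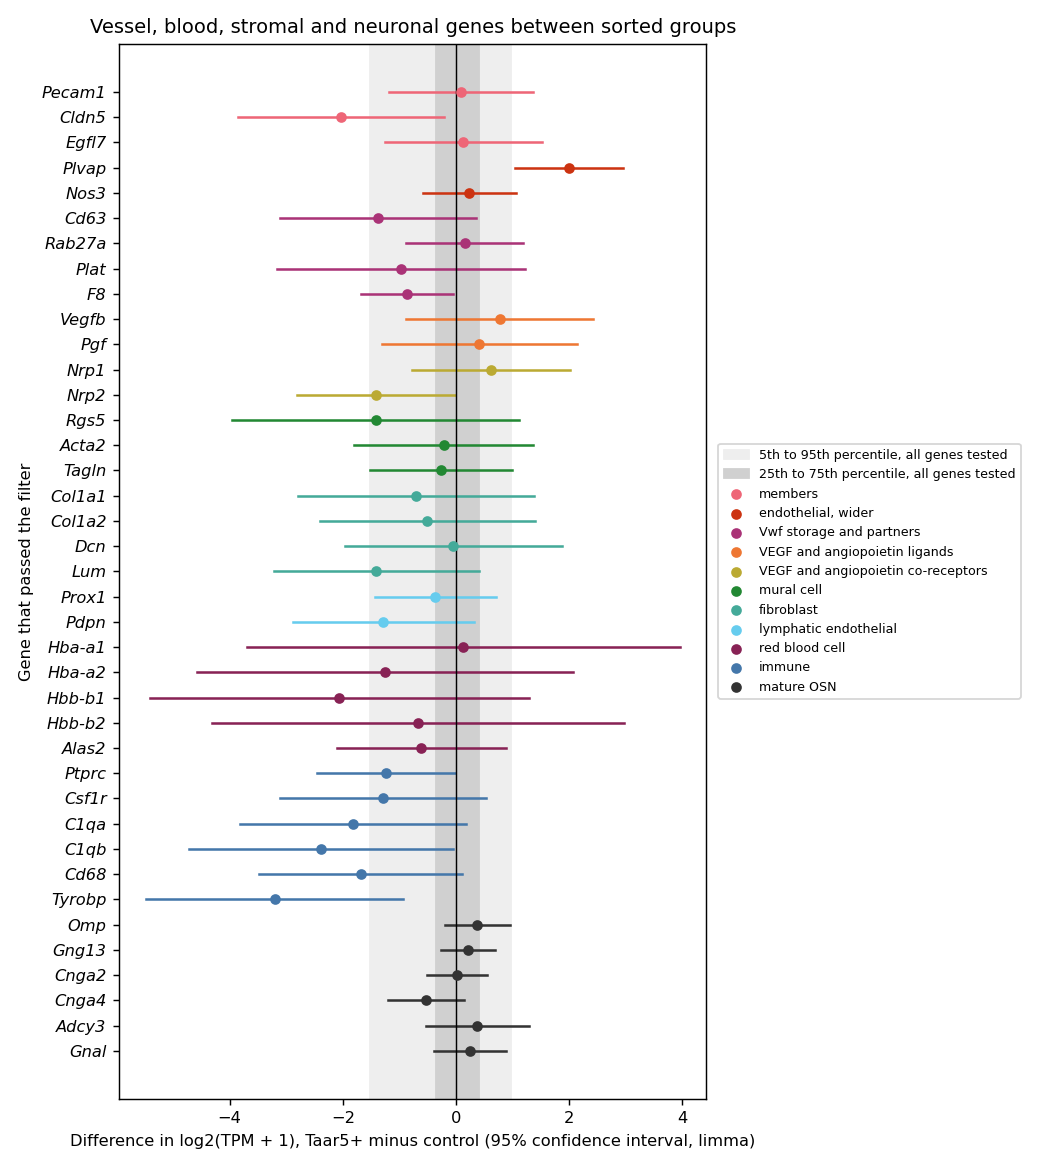
Differences in log2(TPM + 1) between Taar5+ libraries (n = 7) and Taar5-line controls (n = 9), with 95% confidence intervals from limma, for the genes of each list that entered the test, coloured by list. Grey bands span the differences of all genes tested, from -0.36 to 0.41 for the 25th to 75th percentile. Vwf is left out because it was chosen by this contrast. Plvap lies to the right at 1.996 and Cldn5 to the left at -2.03.

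Markers of other cells that a sort of the MOE could carry were not called in either direction over all 16 libraries. Without control replicate 2, Tyrobp of the immune list was called lower, when 148 of the 12460 genes tested were called. Without Taar5+ replicate 5 as well, Tyrobp and C1qb were called lower, among 337 of 11915 genes. Counting each gene of the wider lists once and leaving out the neuronal markers, 78 of 81 genes were in the table and 30 entered the test, with 7 means higher and 23 lower in Taar5+ cells. None of the 30 was called, and the median difference was -0.79. An unadjusted p under 0.05 in limma was found as higher for 1 of 30, against 209 of 12502 genes (1.67%). As lower it was found for 5 of 30, a larger share than the 672 of 12502 genes (5.38%). Of these 5, 3 were from the immune list and the others were F8 and Nrp2. Genes of a list can vary together across libraries, and the shares were not tested against each other. Of the mural cell genes, Rgs5 was highest, with medians of 29.0 TPM in Taar5+ cells and 62.8 TPM in controls (difference -1.42, SE 1.21, adjusted p = 0.947 in limma), and it reached 3111 TPM in control replicate 2. Acta2 and Tagln differed by -0.22 and -0.27. The fibroblast genes Dcn, Col1a1 and Col1a2 differed by -0.05, -0.70 and -0.50, and of the lymphatic genes Pdpn differed by -1.29 and Prox1 by -0.36. The globin genes Hba-a1, Hbb-b2 and Hba-a2 of red blood cells differed by 0.13, -0.67 and -1.25.

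The immune list had the lowest median difference of the lists. All 6 of its genes had lower means in Taar5+ cells and 3 had an unadjusted p under 0.05, and their median difference was -1.75. Tyrobp, a signalling adaptor of myeloid cells, differed by -3.21 (SE 1.09, unadjusted p = 0.00827, adjusted p = 0.359 in limma), and C1qb and C1qa, subunits of complement C1q, by -2.39 and -1.82. Without control replicate 2 the difference of Tyrobp was -3.90 (adjusted p = 0.0298 in limma). Without Taar5+ replicate 5 as well it was -4.47 (adjusted p = 0.00317 in limma), and that of C1qb was -3.65 (adjusted p = 0.0317 in limma). Tyrobp was listed at 0 in control replicate 2 and was 54.3 TPM in Taar5+ replicate 5, the highest of its group. Both libraries left out thus ran against the difference, and these fits called 148 of 12460 and 337 of 11915 genes. The summed level of the immune list was 0 to 72.1 TPM in Taar5+ cells without replicate 5, 208 TPM in replicate 5, and 3.51 to 434 TPM in controls. Cldn5 was low in the same Taar5+ libraries other than replicate 5, and the part of other cell types in its difference was not tested.

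The neuronal list served for contrast. Omp, Gng13 and Cnga2 differed by 0.38, 0.22 and 0.01 between the groups, with adjusted p from 0.934 to 0.996 in limma, and all 6 genes of the list were above 0 in every library.

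Around Vwf, the nearest protein-coding genes had differences close to 0. Ano2, the calcium-activated chloride channel of OSN cilia, starts 3739 bases downstream of the end of Vwf on the same strand. Its level was 398 ± 134 TPM in Taar5+ cells (SD, n = 7) and 388 ± 147 TPM in controls (SD, n = 9), a log2 difference of 0.07 (SE 0.27, adjusted p = 0.983 in limma). Cd9, a tetraspanin gene on the opposite strand, starts 51982 bases upstream of Vwf. Its mean was 1122 ± 122 TPM in Taar5+ cells (SD, n = 7) against 1240 ± 143 TPM in controls (SD, n = 9), a log2 difference of -0.14 (SE 0.11, adjusted p = 0.941 in limma). Both neighbours were far more abundant than Vwf in these cells, and how reads beyond the annotated ends of genes were treated is not given in the sources used here.

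**Figure D5:**
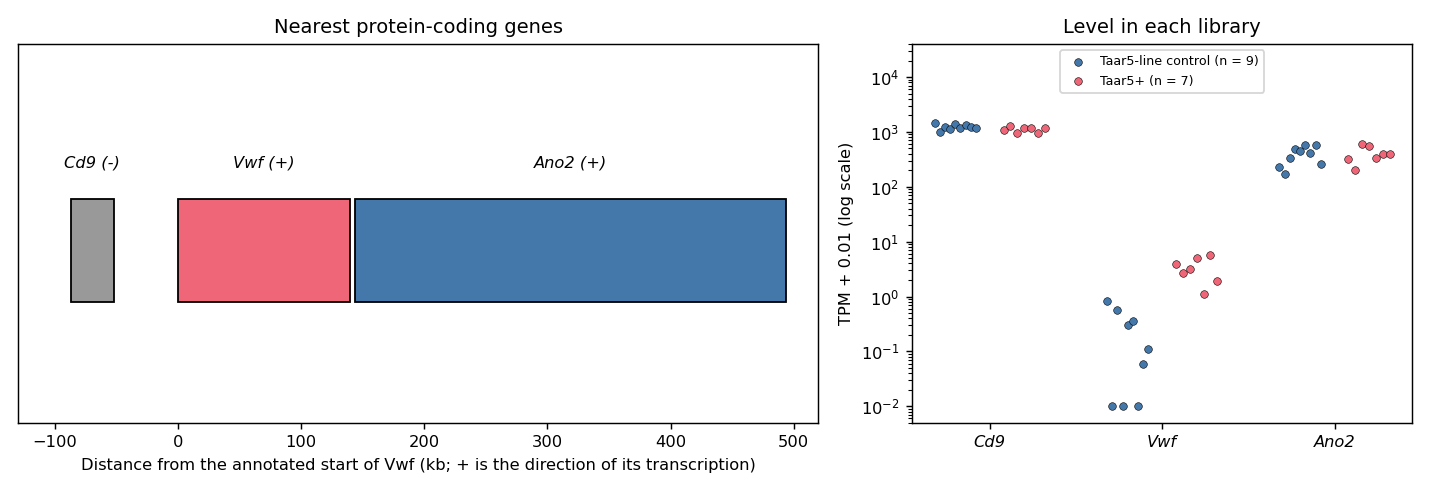
Left, Vwf and its nearest protein-coding genes, drawn to scale by distance in kb from the annotated start of Vwf, with strands in brackets. Right, TPM + 0.01 of the same genes on a log axis in Taar5+ libraries (n = 7) and Taar5-line controls (n = 9). Cd9 and Ano2 overlap between groups, and Vwf does not.

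The genes whose level across the 16 libraries was most like that of Vwf were not the other endothelial members. By Spearman's rho of log2(TPM + 1), they were Taar2 (0.89), Plcxd3 (0.88), Fkbp5 (0.88), Taar3 (0.87) and 2310015A10Rik (0.86), of which Taar2 and Taar3 are receptor genes of the sorted neurons and were compared over 15 libraries, without the repeated values of control replicate 2. Plvap ranked 8 with 0.85. Pecam1 had -0.06, Egfl7 0.12 and Cldn5 -0.53. These values describe libraries that fall into the same groups the choice of Vwf used, so they mostly restate that choice. After subtracting each group mean, Pearson's r was highest for Zcwpw1 (0.74), Ndufa6 (0.74), C230091D08Rik (0.71), Atp5j (0.70) and 1700067K01Rik (0.70). It was 0.32 for Plvap, -0.02 for Pecam1, -0.11 for Egfl7 and -0.47 for Cldn5, close to or below 0 for each of the endothelial members that entered the test.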

How the data were processed

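The authors dissociated MOE tissue with papain, sorted cells by FACS and made Smart-seq2 libraries, which amplify full-length cDNA by PCR and add no molecular identifiers. The submitters' processing notes name Trimmomatic 0.36, HISAT2 2.1.0, Cufflinks 2.2.1 and DESeq2, with mm10 as the genome. The authors deposited TPM, and how they treated strand, low values and multi-mapping reads, and with which annotation, is not given in the sources used here. TPM keep no depth, so no counting error can be given.

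The table held 23847 rows, and 488 rows that repeat a symbol were summed with it. Control replicate 2 repeats the values of replicate 1 for 13 Taar genes and for 0 other genes above 0, and its Taar values were treated as missing in the fit. A gene entered the test if it reached 1 TPM in 7 or more of the 16 Taar5-line libraries. On log2(TPM + 1), lmFit and eBayes of limma 3.58.1 (R 4.3.3, trend on) were fitted, and p-values were adjusted by Benjamini-Hochberg over all 12502 genes and read at 0.05. Differences on this scale understate the change of low genes. The 6 members besides Vwf were also given an exact two-sided permutation test on their mean difference, unadjusted. The Taar6 line, with 1 library a group, was not tested. The fit was checked on simulated data. Other steps used Python 3.11.15, numpy 2.4.6, pandas 2.3.3 and matplotlib 3.10.9, and GENCODE M21 (GRCm38) gave the positions of genes.

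The members and gene lists were chosen with earlier results of these data known. The genes named are all members, the 3 genes with the highest mean TPM of each list, any called gene, the nearest protein-coding gene on each side of Vwf, and the 5 genes most like Vwf by each measure. Nos3, Selp, Ppbp, Erg, Sox7, Flt1, Tie1, Emcn and Robo4 were named after their values were seen. Alternatives were a pseudocount of 0.1, no filter, a mean of at least 5 TPM, quantile normalization, eBayes without trend, rescaling of TPM with receptor genes removed, a replicate block, all 18 libraries with the line as a term, each library left out, and control replicate 2 and Taar5+ replicate 5 left out together.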

Additional observations from a re-analysis of the deposited data

Results flagged for a closer look

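Of 13 groups of values for the 7 genes checked with Dixon's test, 8 had a sample far from the others, where chance would give 0.65. That expectation holds for normally distributed values, which groups made mostly of 0 are not. Taar5+ replicate 5 was far above the other Taar5+ libraries for Cdh5 (0.167 TPM), Kdr (0.603 TPM), Tek (0.995 TPM) and Cldn5 (42.4 TPM). For Cdh5, Kdr and Tek the other 6 libraries of the group were listed at 0, so any value above 0 is far from the rest. Among controls of the Taar5 line, the sample far above the others was replicate 2 for Pecam1 (32.1 TPM), replicate 3 for Cdh5 (0.220 TPM), replicate 9 for Tek (0.383 TPM) and replicate 7 for Cldn5 (45.6 TPM). Cdh5 and Tek were listed at 0 in most of these controls as well, so those flags carry little weight. The library with 32.1 TPM of Pecam1 had the other 6 members listed at 0.

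Vwf differed in direction between the lines. Reporter-positive cells had a log2 difference of 1.75 from controls for Taar5 mice and of -0.31 for Taar6 mice, which gave 1 library a group, and the difference between the lines was not tested.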

How the results depend on the processing

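The differences of Vwf and of F8 kept their direction under every alternative run, and so did those of Cldn5 and Plvap. For Vwf these runs re-use the values it was chosen by, so they describe the choice and give it no support. A pseudocount of 0.1 moved the difference of Vwf to 3.66 and that of Kdr to 0.40, which follows from the smaller constant at low values. With single libraries left out, the difference ran from 1.63 to 1.91 for Vwf, from -2.69 to -1.78 for Cldn5, from -0.18 to 0.45 for Pecam1, from -0.14 to 0.39 for Egfl7 and from 0 to 0.11 for Kdr. Without control replicate 2 and Taar5+ replicate 5 together it was -3.13 for Cldn5, which then passed the threshold, and -0.29 for Egfl7, a change of sign. In the exact permutation test the difference of -2.03 for Cldn5 had p = 0.05. The genes called over all genes went from 21 to 36 with quantile normalization and to 337 without both libraries, and ran from 16 to 148 with single libraries left out (148 without control replicate 2, 66 without Taar5+ replicate 5). Genes called in the wider lists went from 0 to 1 with quantile normalization, 1 without a trend and 3 without both libraries (Plvap, Tyrobp and C1qb), and ran from 0 to 2 with single libraries left out, the 2 being Plvap and Tyrobp without control replicate 2. The cause was not tested. The median difference of all genes was 0.17 with quantile normalization, -0.17 without control replicate 2 and -0.22 without both libraries.

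With the replicate number as a block, 12 genes were called and the difference of Pecam1 was -0.17. The correlations of same-numbered deviations ran from 0.01 to 0.27, 5 of 7 were over 0.1 and 4 of 7 numbers matched their own best. Pairing by number is thus possible, but the labels do not state it, and the main fit and the permutation tests did not use it. The block changed no call of a tested member. Unknown depth limits every value near 0.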
